A study of Mus musculus with 8 samples.

Results

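Inhibitory receptors are surface proteins that restrain a T cell after it has met antigen, and the 8 genes Lag3, Pdcd1, Ctla4, Tigit, Havcr2, Cd160, Btla and Cd200 were examined here in memory CD4 T cells of mice. Members were the probe sets annotated to one of these symbols alone. There were 10 such probe sets among 45037 in the table, 1 each for Lag3, Pdcd1, Ctla4, Havcr2, Btla and Cd200 and 4 for Cd160, so 7 of the 8 genes were measured, of 18193 genes with a probe set of their own. No probe set was annotated to Tigit alone, and that gene was not analysed here. The 8 arrays formed 4 groups of 2 arrays: T follicular helper (Tfh) and T helper 1 (Th1) cells from mice labelled Rictor-null, and the same cell types from wild-type (WT) mice. All groups came from spleen at day 60 after infection with LCMV Armstrong, a virus strain that mice clear as an acute infection, and the cells behind every array were pooled from 10 or more mice. The sources used here do not give the Cre line or promoter behind the Rictor deletion, the mouse strain, the age of the animals or the sort gates. Arrays of a group are labelled biological replicates, and with pooled mice their spread is that between pools.

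PD-1 (Pdcd1), BTLA (Btla), TIGIT (Tigit) and CTLA-4 (Ctla4) carry short tyrosine motifs or other stretches in their cytoplasmic tails that recruit phosphatases or hold the receptor in the endocytic route, and they damp signals of the antigen receptor and of CD28. LAG-3 (Lag3) is related to CD4 and binds MHC class II, CD160 (Cd160) and BTLA share the ligand HVEM (Tnfrsf14), TIM-3 (Havcr2) binds several ligands including galectin-9, and CD200 (Cd200) is itself a ligand that acts through the receptor CD200R1. Tfh cells are known for high PD-1, which marks them in lymphoid tissue. Rictor is required for mTOR complex 2, which phosphorylates AKT, and AKT in turn restrains the FOXO transcription factors.

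Signals are linear intensities, and differences are in log2 of the signal plus 32 with the standard error (SE) from a limma fit over all 8 arrays. Tested were probe sets brighter than the median of the array on 2 or more arrays, which 23725 probe sets and 8 of the 10 members were. A member is said to have risen or fallen where the Benjamini-Hochberg adjusted p of limma, over all probe sets tested, was under 0.05. Median signals per array lay between 35.7 and 37.7. Rictor itself was measured by 5 probe sets, none of which was called lower in Rictor-null cells. The brightest had 563 and 576 in Rictor-null Tfh cells, 560.3 and 563 in WT Tfh cells, 493 and 474 in Rictor-null Th1 cells, and 468 and 556 in WT Th1 cells. With limma 0 of the 5 fell in either cell type, also at an unadjusted p under 0.05 and with an ordinary linear model, and 1 (1427583_at, the dimmest) rose in Tfh cells by 0.30 ± 0.076 log2 (adjusted p = 0.0366). That probe set was above the array median only on the Rictor-null Tfh arrays (45.6 and 53.5, against 32.4 and 35.5 in WT Tfh cells). It thus passed the filter only through the group in which it was called higher. Where the probes lie relative to the deleted part is not known here, the genotype could not be checked from them, and Rictor-null stands throughout for the arrays labelled so. The Tfh genes Cxcr5, Bcl6, Il21, Tox2 and Sh2d1a summed to signals of 1699.7 to 2805 on the Tfh arrays and 960.2 to 1349.9 on the Th1 arrays, and 5 of 5 were higher in Tfh than in Th1 cells of either genotype. The Th1 genes did not separate the cell types in the same way: of 5 that passed the filter, 0 were called higher in WT Th1 cells and 1, the chemokine gene Ccl5, was called higher in WT Tfh cells (0.32 log2, adjusted p = 0.0112). Tbx21, the factor that defines Th1 cells, differed by -0.07 log2 in WT cells (adjusted p = 0.449), and Selplg by 0.00 log2 (adjusted p = 0.998). In Rictor-null cells 1 of the 5, Cxcr6, was called higher in Th1 cells (-0.58 log2, adjusted p = 0.0186).

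In both cell types most of the receptors measured above the filter lay higher in Rictor-null cells. In Tfh cells 4 of the 8 tested member probe sets rose (Lag3, Pdcd1, Ctla4, Cd200) and 0 fell, and in Th1 cells 6 rose (Lag3, Pdcd1, Ctla4, Cd200 and 2 probe sets of Cd160) and 0 fell. Over all probe sets tested, limma called 8.46% as rises and 1.61% as falls in Tfh cells, and 6.39% and 2.36% in Th1 cells. The members and lists were chosen with earlier results of these data known, so these shares give the scale and no excess was tested. The median difference over the 8 member probe sets was 0.31 log2 in Tfh and 0.42 in Th1 cells, where that over all probe sets tested was 0.04 and 0.00. At an unadjusted p under 0.05 limma had 7 of the 8 higher and 0 lower in each cell type, and an ordinary linear model 6 and 7 higher and 0 lower. Of all 23725 probe sets tested, 6626 in Tfh and 5673 in Th1 cells had an unadjusted limma p under 0.05, in either direction. The share for the ordinary model was not computed. Both Rictor-null arrays lay above both WT arrays for 7 of the 8 member probe sets in each cell type, as did 39.0% of all probe sets tested in Tfh cells and 28.8% in Th1 cells. The split of calls over the whole table depended on the scaling between arrays. Rises made up 84.0% of the calls in Tfh cells as deposited, 64.5% after quantile normalization and 48.4% after median scaling, and in Th1 cells 73.0%, 59.9% and 55.8%. Of the member calls between genotypes, the rise of Cd200 in Tfh cells was lost under both scalings (adjusted p = 0.0688 and 0.0733), and the others were kept.

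**Figure D1:**
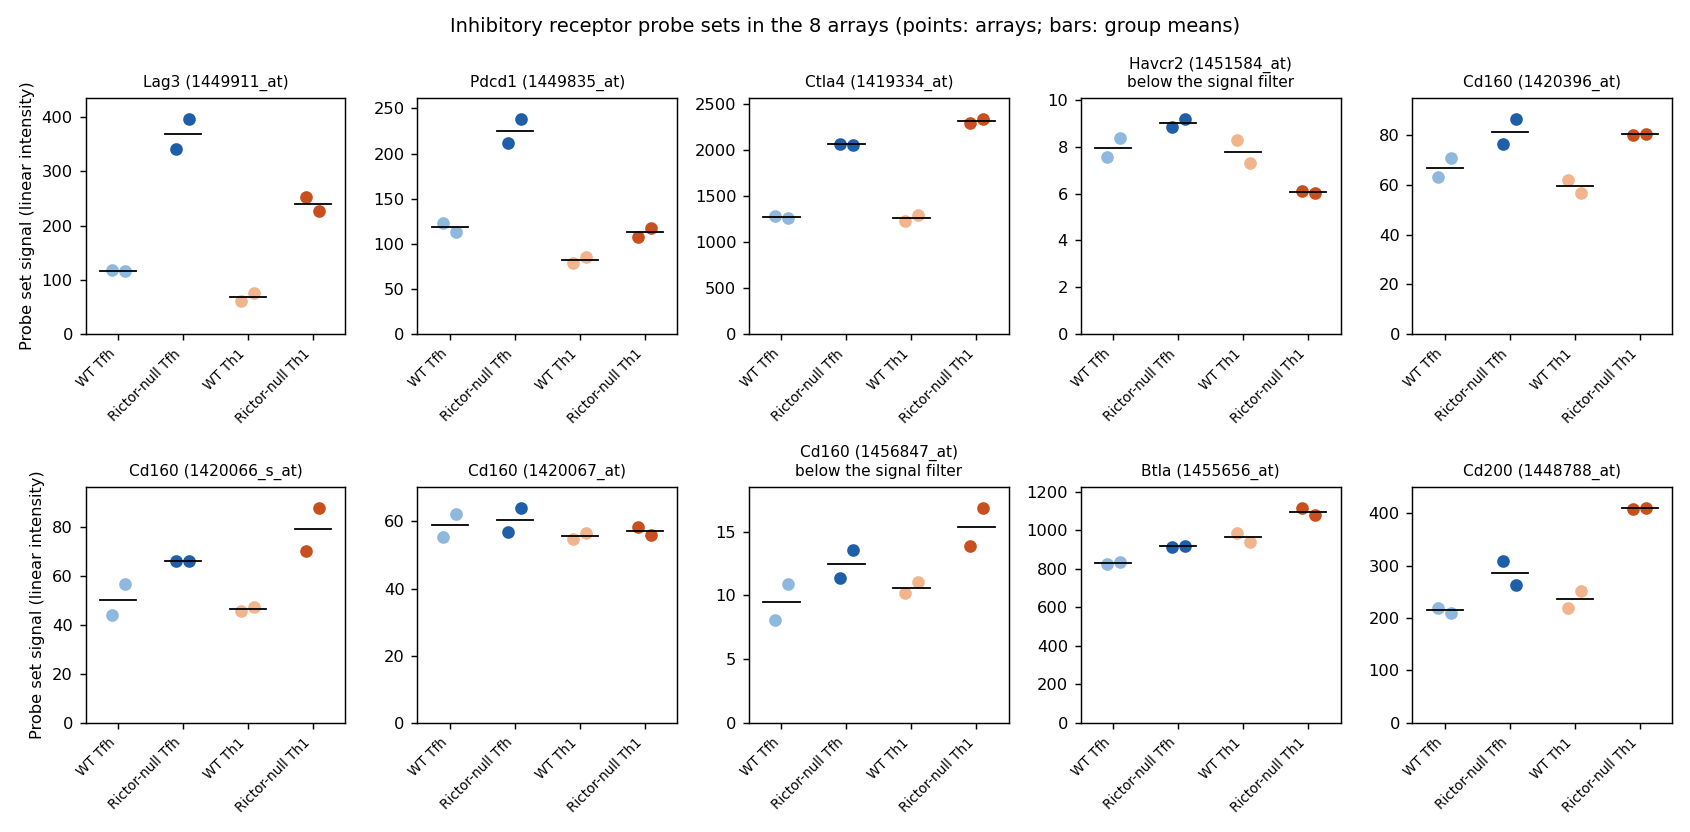
Signal of each of the 10 member probe sets (y axis, linear intensity from 0) on the 8 arrays, by group (x axis); points are arrays and bars are group means of 2 arrays. Rictor-null arrays span 228 to 396 for Lag3, where WT arrays span 61.6 to 117, and 2053 to 2329.7 for Ctla4, where WT arrays span 1228 to 1289.

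Lag3, whose product competes with CD4 for MHC class II, had the largest genotype difference among the members (gene ID 16768, chromosome 6, 124904359 to 124912434, GRCm38.p6, 1 probe set). Its signal was 341 and 396 in Rictor-null Tfh cells, 117 and 116 in WT Tfh cells, 254 and 228 in Rictor-null Th1 cells, and 61.6 and 75.4 in WT Th1 cells. The 4 groups did not overlap and stood in the order Rictor-null Tfh, Rictor-null Th1, WT Tfh, WT Th1, so genotype set the order before cell type. The mean signal was 3.16 times that of WT in Tfh cells and 3.51 times in Th1 cells, and between single arrays the ratio ran from 2.90 to 3.41 and from 3.02 to 4.12. The rise was 1.43 ± 0.089 log2 in Tfh cells (SE, n = 2 arrays per group, limma adjusted p = 3.71e-05), against 1.44 ± 0.089 in Th1 cells (adjusted p = 2.61e-05). Among the 23725 probe sets tested these rises took rank 9 in Tfh and rank 13 in Th1 cells. The genotype effect differed between the cell types by -0.02 ± 0.126 log2 (adjusted p = 0.957).

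Pdcd1, which encodes PD-1, had a rise that was larger in Tfh than in Th1 cells by value (gene ID 18566, chromosome 1, 94038305 to 94052553, 1 probe set). Its signal was 212 and 238 in Rictor-null Tfh cells, 123 and 114 in WT Tfh cells, 108 and 118 in Rictor-null Th1 cells, and 79.4 and 85.9 in WT Th1 cells. The Rictor-null Tfh arrays stood above all others, while the Rictor-null Th1 arrays overlapped the WT Tfh arrays. The rise was 0.77 ± 0.072 log2 in Tfh cells (limma adjusted p = 0.000306, 1.90 times the WT signal), against 0.34 ± 0.072 in Th1 cells (adjusted p = 0.0201, 1.36 times). The difference between these effects, 0.43 ± 0.102, did not pass the test over all probe sets (adjusted p = 0.0874), and it passed without Rictor-null Tfh replicate 1 (0.51, adjusted p = 0.0224). The Tfh rise was called with each array left out. The Th1 call ended without replicate 1 (adjusted p = 0.0612) or 2 (0.116) of the Rictor-null Th1 group, and without replicate 1 (0.126) or 2 (0.0510) of the WT Th1 group, with differences of 0.29 to 0.38 log2.

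Ctla4 encodes CTLA-4, which takes the ligands CD80 and CD86 away from CD28 (gene ID 12477, chromosome 1, 60909025 to 60915832, 1 probe set). Its signal was 2068 and 2053 in Rictor-null Tfh cells, 1279.5 and 1256 in WT Tfh cells, 2294 and 2329.7 in Rictor-null Th1 cells, and 1228 and 1289 in WT Th1 cells. The genotypes lay well apart in both cell types, and the WT groups overlapped each other. The rise was 0.69 ± 0.055 log2 in Tfh cells (limma adjusted p = 0.000126, 1.63 times the WT signal), against 0.86 ± 0.055 in Th1 cells (adjusted p = 3.05e-05, 1.84 times). The difference between these effects was -0.17 ± 0.078 (adjusted p = 0.271). Both rises were called with each array left out and under each of the other alternatives.

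Cd200 encodes a ligand of the immunoglobulin family whose receptor sits mainly on myeloid cells and some T cells (gene ID 17470, chromosome 16, 45382111 to 45409060, 1 probe set). Its signal was 309 and 263 in Rictor-null Tfh cells, 219.7 and 209 in WT Tfh cells, 408 and 409.6 in Rictor-null Th1 cells, and 219.8 and 252 in WT Th1 cells. The Rictor-null Th1 arrays stood above all others, followed by the Rictor-null Tfh arrays. The rise was 0.72 ± 0.083 log2 in Th1 cells (limma adjusted p = 0.00075, 1.73 times the WT signal) and 0.36 ± 0.083 in Tfh cells (adjusted p = 0.0249, 1.33 times). The order of effects was thus opposite to that of Pdcd1, but the difference of -0.36 ± 0.117 did not pass either (adjusted p = 0.169). It passed without Rictor-null Tfh replicate 1 (-0.46, adjusted p = 0.0338). In Tfh cells the call was lost when Rictor-null Tfh replicate 1 (adjusted p = 0.0569), WT Tfh replicate 1 (0.123) or WT Tfh replicate 2 (0.175) was left out, and without the signal filter (0.0610). The Th1 call was kept with each array left out, but ended with an ordinary linear model (adjusted p = 0.05865).

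Cd160, whose product binds HVEM and is held in the membrane by a lipid anchor, had 4 probe sets that did not behave alike (gene ID 54215, chromosome 3, 96798763 to 96829351). The brightest, 1420396_at, had signals of 76.6 and 86.4 in Rictor-null Tfh cells, 63.3 and 70.8 in WT Tfh cells, 80.37 and 80.42 in Rictor-null Th1 cells, and 62.1 and 56.9 in WT Th1 cells. The probe set 1420066_s_at had 65.9 and 66.1, 44.0 and 56.7, 70.4 and 87.8, and 45.8 and 47.2 in the same order of groups. In these 2 probe sets the Rictor-null arrays lay above the WT arrays of the same cell type. They rose in Th1 cells by 0.30 ± 0.067 log2 (limma adjusted p = 0.0260) and 0.50 ± 0.090 (adjusted p = 0.00972), and had 0.20 ± 0.067 (adjusted p = 0.0965) and 0.26 ± 0.090 (adjusted p = 0.102) in Tfh cells. The probe set 1420067_at, annotated to the same source sequence as 1420066_s_at, lay between 54.8 and 63.99 on all arrays, with overlapping groups and differences of 0.02 in both cell types (adjusted p = 0.834 and 0.863). The dimmest, 1456847_at, lay below the filter at 8.09 to 16.9, and without the filter had 0.10 (adjusted p = 0.317) in Tfh and 0.15 (adjusted p = 0.183) in Th1 cells. The Th1 call of 1420396_at ended without any one of the 4 Th1 arrays (adjusted p = 0.125 without Rictor-null replicate 1, 0.102 without Rictor-null replicate 2, 0.0677 without WT replicate 1 and 0.123 without WT replicate 2). That of 1420066_s_at ended without Rictor-null Th1 replicate 2 (0.0627) or WT Th1 replicate 1 (0.0588). Without Rictor-null Tfh replicate 1 the Tfh difference of 1420396_at passed (0.26, adjusted p = 0.0430).

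Btla, which encodes the other HVEM receptor of the list, differed little between genotypes (gene ID 208154, chromosome 16, 45223705 to 45252895, 1 probe set). Its signal was 916 and 921 in Rictor-null Tfh cells, 824 and 836 in WT Tfh cells, 1116 and 1079.6 in Rictor-null Th1 cells, and 988 and 939 in WT Th1 cells. The groups did not overlap, with both Th1 groups above both Tfh groups. The genotype difference was 0.14 ± 0.056 log2 in Tfh cells (limma adjusted p = 0.137), against 0.18 ± 0.056 in Th1 cells (adjusted p = 0.0794), 1.11 and 1.14 times the WT signal. Btla and Cd200 lie beside each other on chromosome 16, 129.2 kb apart with 0 protein-coding RefSeq genes between them, and Tigit lies 1558.6 kb before Btla. The Th1 difference of Btla passed without the signal filter (0.18, adjusted p = 0.0499) and with a pseudocount of 64 (0.18, adjusted p = 0.0469). The difference between the 2 neighbours was not tested.

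Havcr2, which encodes TIM-3, was at the bottom of the signal range (gene ID 171285, chromosome 11, 46454931 to 46481255, 1 probe set). Its signal was 8.83 and 9.17 in Rictor-null Tfh cells, 7.55 and 8.37 in WT Tfh cells, 6.11 and 6.02 in Rictor-null Th1 cells, and 8.28 and 7.31 in WT Th1 cells, against array medians of 35.7 to 37.7. The Rictor-null Th1 arrays were the lowest of all and the Rictor-null Tfh arrays the highest. The probe set was brighter than 8.82% to 14.6% of the signals of its array and did not pass the filter. Without the filter its differences were 0.04 ± 0.030 log2 in Tfh (limma adjusted p = 0.549), against -0.06 ± 0.030 in Th1 cells (adjusted p = 0.334). Detection calls were not part of the table, so these values are given without a statement on whether the transcript was detected.

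**Figure D2:**
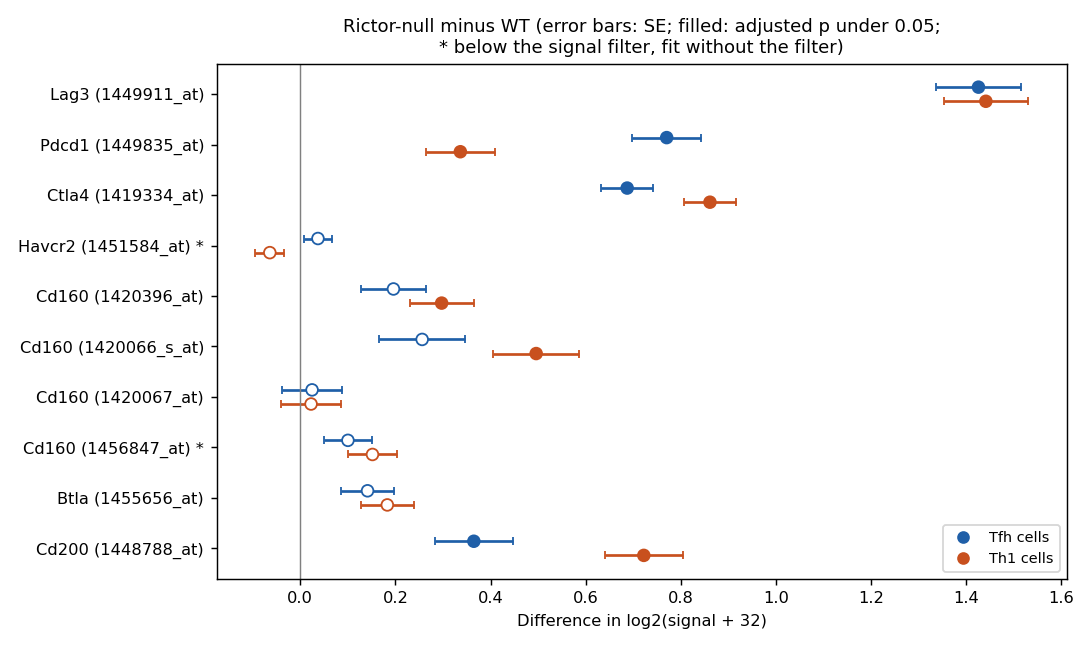
Difference between Rictor-null and WT cells in log2(signal + 32) (x axis) for each member probe set (y axis) in Tfh and Th1 cells, with the SE as error bars; filled points have an adjusted p under 0.05, and an asterisk marks probe sets below the filter. Lag3 lies near 1.43 and 1.44 in Tfh and Th1 cells, Pdcd1 is further right in Tfh cells (0.77 and 0.34) and Cd200 in Th1 cells (0.36 and 0.72).

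The comparison of Tfh with Th1 cells asks which receptors mark a lineage within 1 genotype. Lag3 and Pdcd1 were higher in Tfh cells of both genotypes, and Btla was higher in Th1 cells of both. In WT cells Lag3 differed by 0.57 ± 0.089 log2 (limma adjusted p = 0.00734), Pdcd1 by 0.39 ± 0.072 (adjusted p = 0.0139) and Btla by -0.21 ± 0.056 (adjusted p = 0.0492). In all, 2 of 8 member probe sets were called higher and 1 lower in WT Tfh cells, where 2.31% and 7.09% of all probe sets tested were. In Rictor-null cells Lag3 differed by 0.55 ± 0.089 (adjusted p = 0.00540), Pdcd1 by 0.83 ± 0.072 (adjusted p = 0.000224), Btla by -0.25 ± 0.056 (adjusted p = 0.0232) and Cd200 by -0.48 ± 0.083 (adjusted p = 0.00779). Here 2 of 8 were called higher and 2 lower, against 4.22% and 6.06% of all probe sets tested. Over the whole table, calls higher in Tfh cells made up 24.6% of calls in WT cells as deposited, 45.5% after quantile normalization and 60.2% after median scaling, and 41.1%, 51.1% and 53.8% in Rictor-null cells. Cd200 had -0.12 ± 0.083 in WT cells (adjusted p = 0.360), and Ctla4 had 0.01 ± 0.055 in WT (adjusted p = 0.916) and -0.16 ± 0.055 in Rictor-null cells (adjusted p = 0.0959).

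Leaving out single arrays ended several of these calls. In WT cells the calls of Lag3 and Pdcd1 ended without WT Tfh replicate 1 (adjusted p = 0.0867 and 0.151), WT Tfh replicate 2 (0.0679 and 0.0748) or WT Th1 replicate 1 (0.0527 and 0.0921). The WT call of Btla ended in 13 of 22 alternatives, among them each Rictor-null Th1 array left out (0.0652), WT Tfh replicate 1 (0.255) or 2 (0.203) and WT Th1 replicate 1 (0.229) or 2 (0.0914). Its call in Rictor-null cells ended in 9 of 22, among them without Rictor-null Tfh replicate 2 (0.0637), either WT Tfh array (0.0562), or Rictor-null Th1 replicate 1 (0.127) or 2 (0.0640). That of Cd200 ended without Rictor-null Th1 replicate 1 (0.0557). Pdcd1 in Rictor-null cells was called higher in Tfh cells under each of the 22 alternatives. Among markers of CD8 T and NK cells, 3 of the 6 above the filter were called higher in WT Tfh cells and 0 lower. Of all probe sets tested, 2.31% and 7.09% were. The marker signals summed to 2093 to 2179.7 in WT Tfh against 1167 to 1201 in WT Th1 cells. Much of that gap was Eomes, with mean signals of 873 and 67.6 (3.18 log2). Of the defining markers, Cd8a had 0.03 (limma adjusted p = 0.796), Cd8b1 -0.19 (adjusted p = 0.0682), and Ncr1 lay below the filter. The part of these markers in the lineage differences was not tested.

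**Figure D3:**
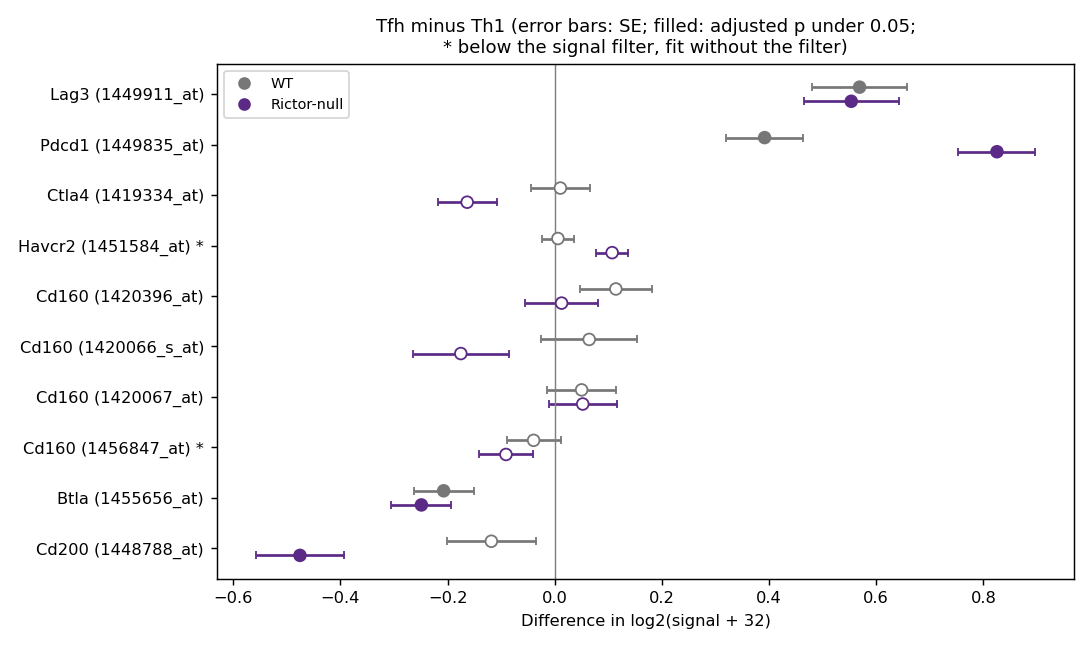
Difference between Tfh and Th1 cells in log2(signal + 32) (x axis) for each member probe set (y axis) in WT and Rictor-null cells, with the SE as error bars; filled points have an adjusted p under 0.05, and an asterisk marks probe sets below the filter. Lag3 and Pdcd1 lie to the right of 0 and Btla to the left in both genotypes, while Cd200 is at -0.12 in WT and -0.48 in Rictor-null cells.

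Whether the genotype effect depended on the cell type was tested for each member by the interaction term. With limma 0 of 8 member probe sets passed, where 1.26% of all probe sets tested did (positive in 66.1% of calls as deposited, 59.1% after quantile normalization and 51.3% after median scaling). At an unadjusted limma p under 0.05 were 2 of the 8 (Pdcd1 and Cd200, in opposite directions) and 4400 of all 23725 probe sets tested. The ordinary linear model called 0 of the members, but only 4 of all 23725 probe sets, too few for its 0 to say anything about the members.

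Of the 4 receptors that rose in both cell types, the RefSeq promoter table gave windows for Ctla4, Pdcd1 and Cd200 and none for Lag3. The windows are shown because these genes rose together in Rictor-null cells. The windows are the 250 bases before the start site, 5′ to 3′ on the gene's strand, from RefSeq on GRCm38.p6. Capitals mark matches on either strand to TGTTT, the core of the FOXO motif (AAACA on the other strand), to GGAAA, the core of the NFAT motif (TTTCC on the other strand), and to the AP-1 motif TGANTCA.
Ctla4 (chr1:60908775-60909024, plus strand): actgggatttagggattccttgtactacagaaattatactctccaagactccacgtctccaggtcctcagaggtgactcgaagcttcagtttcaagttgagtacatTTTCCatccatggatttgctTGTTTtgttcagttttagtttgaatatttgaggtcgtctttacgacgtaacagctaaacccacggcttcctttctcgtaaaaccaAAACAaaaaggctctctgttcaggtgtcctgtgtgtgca
Pdcd1 (chr1:94052554-94052803, minus strand): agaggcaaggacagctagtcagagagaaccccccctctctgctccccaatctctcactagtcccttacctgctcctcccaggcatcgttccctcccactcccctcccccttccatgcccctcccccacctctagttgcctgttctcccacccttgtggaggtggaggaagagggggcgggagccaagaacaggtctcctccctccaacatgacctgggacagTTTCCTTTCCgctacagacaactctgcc
Cd200 (chr16:45409054-45409303, minus strand): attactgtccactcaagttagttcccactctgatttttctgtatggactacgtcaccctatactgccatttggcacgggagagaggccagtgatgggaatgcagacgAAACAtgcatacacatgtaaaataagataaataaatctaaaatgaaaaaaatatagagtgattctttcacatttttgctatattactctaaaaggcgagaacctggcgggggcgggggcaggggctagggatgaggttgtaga
The Ctla4 window held 2 matches to TGTTT and 1 to GGAAA, the Pdcd1 window 0 and 2 (side by side, just before the start site), and the Cd200 window 1 and 0. The core TGTTT was in 46.4% and GGAAA in 55.6% of all 32851 windows of this length in the table. The AP-1 motif, present in 6.7% of all windows, and the longer FOXO motif TGTTTAC, present in 3.2%, were in none of the 3. The windows also differ in composition, with 42.4% G and C in Ctla4 and Cd200 and 60.4% in Pdcd1. Among the members not called in both cell types, the Btla window held 1 match to TGTTT, as that of Cd200 did, and the Havcr2 window 1 to the AP-1 motif. The 2 windows of Cd160 held 0 matches to TGTTT, and 0 and 1 to GGAAA. The window of Tigit, which was not measured, held 6 to TGTTT and 2 to GGAAA. A match is a string of letters, and no binding was measured.

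The ligands and partners of these receptors were read from a list of 13 genes, of which 9 passed the filter. In Tfh cells 2 rose and 0 fell, and in Th1 cells 2 rose and 2 fell. By the interaction term 0 of the 9 passed (Pvr 0.32, limma adjusted p = 0.143), beside 1.26% of all probe sets tested. For this and the following lists, the shares over all probe sets tested were 8.46% rises and 1.61% falls in Tfh cells and 6.39% and 2.36% in Th1 cells, with medians of 0.04 and 0.00 log2. Lgals3, which encodes galectin-3, a lectin reported to bind LAG-3, rose by 0.74 ± 0.062 log2 in Tfh (limma adjusted p = 0.000158), against 0.93 ± 0.062 in Th1 cells (adjusted p = 3.78e-05). Pdcd1lg2, which encodes the PD-1 ligand PD-L2, rose by 0.46 ± 0.060 (adjusted p = 0.00198) and 0.41 ± 0.060 (adjusted p = 0.00304). Cd200r1, the receptor of CD200, fell in Th1 cells by 0.39 on the log2 scale (adjusted p = 0.0123) and had -0.26 in Tfh cells (adjusted p = 0.0547). Pvr, which encodes a ligand of TIGIT, fell in Th1 cells by 0.33 (adjusted p = 0.0151) and had -0.01 in Tfh cells (adjusted p = 0.912). The Cd200r1 call in Th1 cells ended without Rictor-null Th1 replicate 1 (adjusted p = 0.101) or WT Th1 replicate 2 (0.0725). The Tfh difference of Cd200r1 passed in 7 of 22 alternatives, namely quantile normalization (-0.31, adjusted p = 0.0330), median scaling (-0.34, 0.0304), 1 probe set per gene (0.0377), the crossed replicate block (0.0266), only the groups compared (0.0420) and either WT Th1 array left out (0.0408). The Th1 call of Pvr ended without Rictor-null Th1 replicate 1 (0.0860), Rictor-null Th1 replicate 2 (0.0730) or WT Th1 replicate 1 (0.107).

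Of 5 activating receptors or ligands that share a partner with the members or belong to the CD28 family, 1 rose in Tfh cells and 0 fell, and 1 rose and 1 fell in Th1 cells. Icos, a costimulatory receptor of Tfh cells, rose by 0.38 ± 0.059 log2 in Tfh (limma adjusted p = 0.00425), against 0.36 ± 0.059 in Th1 cells (adjusted p = 0.00574). Its Tfh call ended without WT Tfh replicate 2 (adjusted p = 0.0612). Tnfsf14, which encodes LIGHT, a further HVEM ligand, fell in Th1 cells by 0.47 (adjusted p = 0.00106) and had -0.03 in Tfh cells (adjusted p = 0.773), and the difference between these effects passed (0.44 ± 0.081, adjusted p = 0.0403). Cd28, the receptor that CTLA-4 outcompetes for ligand, had -0.18 (adjusted p = 0.0956) and 0.21 (adjusted p = 0.0728). The difference between these effects did not pass (-0.39, adjusted p = 0.0781).

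Among 15 genes of signalling and trafficking, which include phosphatases, adaptors and sheddases of these receptors, 1 rose and 1 fell in Tfh cells, and 0 rose and 1 fell in Th1 cells. Pag1, an adaptor that brings the kinase CSK to the membrane, fell by 0.55 on the log2 scale in Tfh cells (limma adjusted p = 0.000422), and it fell by 0.52 in Th1 cells (adjusted p = 0.000494). Adam17, a protease that can shed LAG-3, rose in Tfh cells by 0.23 ± 0.062 (adjusted p = 0.0444), a call that ended with any one of the arrays left out except Rictor-null Tfh replicate 1 (adjusted p up to 0.233), and under both other scalings (0.129 and 0.112). The phosphatase gene Ptpn6 had -0.19 (adjusted p = 0.0841) and -0.07 (adjusted p = 0.566), and its Tfh difference passed under quantile normalization (-0.24, adjusted p = 0.0447), under median scaling (-0.27, adjusted p = 0.0402) and without Rictor-null Tfh replicate 1 (-0.26, adjusted p = 0.0280). The list median was -0.07 in Tfh and 0.00 in Th1 cells, beside 0.04 and 0.00 over all probe sets tested.

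Transcription factors known to act on inhibitory receptor genes were read from a list of 20, of which 19 passed the filter. In Tfh cells 9 rose and 1 fell, and in Th1 cells 7 rose and 2 fell. The list was chosen with earlier results of these data known, and no excess was tested. By the interaction term 0 of the 19 passed (Id3 0.45, limma adjusted p = 0.124), beside 1.26% of all probe sets tested. The list median was 0.24 in Tfh and 0.26 in Th1 cells, beside 0.04 and 0.00 over all probe sets tested. Nr4a3, an orphan nuclear receptor induced by antigen receptor signals, rose by 0.93 ± 0.064 log2 (limma adjusted p = 6.08e-05) and 0.78 ± 0.064 (adjusted p = 0.000119). Tox2, an HMG box factor of Tfh and exhausted cells and also among the Tfh markers, rose by 1.12 ± 0.080 (adjusted p = 6.95e-05) and 0.71 ± 0.080 (adjusted p = 0.000673), and Irf4 by 0.48 ± 0.069 (adjusted p = 0.00293) and 0.42 ± 0.069 (adjusted p = 0.00560). Bach2, a repressor of effector genes, fell by 0.37 (adjusted p = 0.00297) and 0.58 (adjusted p = 0.000208). Id3 rose in Tfh cells by 0.69 (adjusted p = 0.00162) and had 0.24 in Th1 cells (adjusted p = 0.134). It passed in Th1 cells without either Rictor-null Tfh array (adjusted p = 0.0334), arrays that are not part of that difference. With the ordinary linear model Irf4 lost its call in both cell types (adjusted p = 0.0623 and 0.0790), Tox2 in Th1 cells (0.0554) and Id3 in Tfh cells (0.0689).

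The list of other inhibitory receptors did not move in a single direction. It also held Nt5e, an enzyme gene, and Il10ra, a cytokine receptor gene. Of 11 listed genes that passed the filter, 3 rose and 3 fell in Tfh cells, and 3 rose and 2 fell in Th1 cells, with list medians of -0.02 and -0.06. Klrg1, a lectin-like receptor of terminally differentiated cells, rose by 1.15 ± 0.072 log2 (limma adjusted p = 3.91e-05) and 1.77 ± 0.072 (adjusted p = 2.22e-06), and the difference between these effects passed (-0.62 ± 0.102, adjusted p = 0.0308). Nt5e, which encodes the adenosine-producing enzyme CD73, rose by 0.55 (adjusted p = 0.000723) and 0.49 (adjusted p = 0.00103), and the interleukin 10 receptor gene Il10ra by 0.39 (adjusted p = 0.00308) and 0.63 (adjusted p = 0.000196). Klrc1, which encodes NKG2A, fell by 0.78 (adjusted p = 0.000210) and 0.69 (adjusted p = 0.000319).

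**Figure D4:**
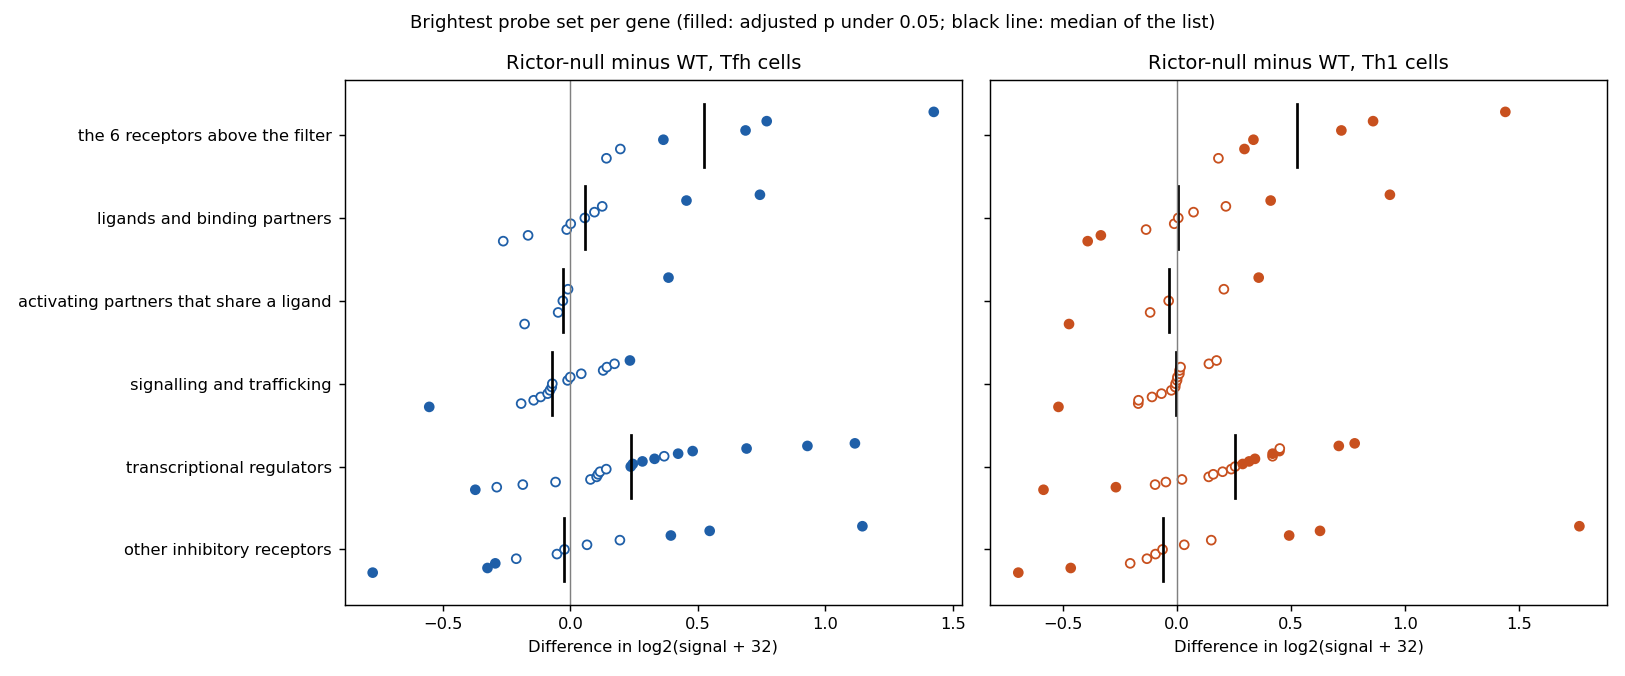
Difference between Rictor-null and WT cells in log2(signal + 32) (x axis) for the brightest probe set of each gene above the filter, by list (y axis), in Tfh cells (left) and Th1 cells (right); filled points have an adjusted p under 0.05, black lines are list medians, and the height within a list only separates points. The 6 receptors have medians of 0.53 and 0.53, transcriptional regulators 0.24 and 0.26, and the list of other inhibitory receptors, which includes Nt5e and Il10ra, -0.02 and -0.06, with points on both sides of 0.

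Markers of other cell types are given beside these results because bulk RNA of sorted cells was measured, in which more cells of a type and more RNA per cell cannot be told apart. Regulatory T cells express Ctla4 and other members. Of 5 regulatory T cell markers 4 passed the filter, of which 2 rose in Tfh and 3 in Th1 cells with 0 falls. Their summed signal was 2945 to 3129 in Rictor-null Tfh against 1871 to 1947 in WT Tfh cells, and 2994 to 3109 in Rictor-null Th1 against 1730.1 to 1790.1 in WT Th1 cells. Ikzf2 rose by 0.82 (limma adjusted p = 0.000126) and 0.62 (adjusted p = 0.000471) and Nrp1 by 0.44 (adjusted p = 0.0244) and 0.94 (adjusted p = 0.000484). The Tfh call of Nrp1 ended under median scaling (adjusted p = 0.0675) and without the filter (0.0711). Foxp3, which defines regulatory T cells, lay below the filter with mean signals of 34.5 and 20.8 in Rictor-null and WT Tfh cells, and had 0.33 ± 0.118 (adjusted p = 0.182) in Tfh and 0.27 ± 0.118 (adjusted p = 0.290) in Th1 cells without the filter. The Tfh call of Nrp1 ended without WT Tfh replicate 1 (adjusted p = 0.0863) or 2 (0.185).

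The Tfh markers named above also moved with the genotype. Of 5, 5 rose in Tfh and 3 in Th1 cells with 0 falls, with medians of 0.49 and 0.37 log2. Their summed signal was 2691 to 2805 in Rictor-null Tfh against 1699.7 to 1721 in WT Tfh cells, and 1332 to 1349.9 in Rictor-null Th1 against 960.2 to 977 in WT Th1 cells. Of these, Cxcr5, the receptor that guides cells to follicles, rose in Tfh cells by 0.49 (limma adjusted p = 0.00940) and had 0.00 in Th1 cells (adjusted p = 0.983). The interaction term passed for 0 of the 5 Tfh markers, beside 1.26% of all probe sets tested. The Tfh call of Sh2d1a ended without WT Tfh replicate 1 (adjusted p = 0.0651) or 2 (0.0975). The part of these markers in the results for Pdcd1 and the other receptors was not tested.

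Markers of CD8 T and NK cells also moved with the genotype. Of 7, 6 passed the filter, of which 5 rose in Tfh and 3 in Th1 cells with 0 falls. Their summed signal was 2666 to 2839.9 in Rictor-null Tfh against 2093 to 2179.7 in WT Tfh cells, and 1673 to 1695 in Rictor-null Th1 against 1167 to 1201 in WT Th1 cells. Of the defining markers, Cd8a had -0.07 (limma adjusted p = 0.544) and -0.09 (adjusted p = 0.504), Ncr1 lay below the filter, and Cd8b1 rose in Tfh cells by 0.28 (adjusted p = 0.0179) and had 0.00 in Th1 cells (adjusted p = 0.993). The interaction term did not pass for Cd8b1 (0.28, adjusted p = 0.140) or Eomes (0.13, adjusted p = 0.536). Klrd1, a lectin-like receptor gene, rose by 0.28 (adjusted p = 0.0143) and 0.46 (adjusted p = 0.00103). Eomes rose in Tfh cells by 0.33 (adjusted p = 0.0278) and had 0.20 in Th1 cells (adjusted p = 0.148). Median scaling ended the Tfh calls of Klrd1 (adjusted p = 0.0525) and Eomes (0.0826), and that of Eomes also ended without the filter (0.0595). Klre1, a further lectin-like receptor gene that is named here after its values were seen, had the largest rises of the list, 1.17 ± 0.081 in Tfh (adjusted p = 6.18e-05), against 2.10 ± 0.081 in Th1 cells (adjusted p = 2.13e-06). The Tfh calls of Klrd1 and Eomes ended without WT Tfh replicate 1 (0.0944 and 0.0868) or 2 (0.135 and 0.211), and that of Eomes also without Rictor-null Tfh replicate 1 (0.0628). The Cd8b1 call ended without Rictor-null Tfh replicate 2 (0.0851) and without either WT Tfh array (0.113 and 0.149). The 4 B cell markers with a probe set summed to 118 to 145 in Rictor-null against 107 to 124 in WT Tfh cells. In Th1 cells they had 132 to 150.1 against 119 to 129. Cd79b, the only 1 above the filter, had 0.28 (limma adjusted p = 0.151) and 0.38 (adjusted p = 0.0812). The 5 myeloid markers summed to 188 to 216 against 177 to 190 in Tfh cells. In Th1 cells they had 146 to 155 against 145 to 164. Of 3 above the filter, 1 rose in Tfh cells (Cd68, 0.38, adjusted p = 0.0190) and 0 in Th1 cells, with 0 falls. Cd68 was also higher in WT Tfh than in WT Th1 cells (0.38, adjusted p = 0.0236). The part of these cell types in the receptor results was not tested.

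The genes most like each of the 6 receptors above the filter, Havcr2 being below it, were found over the 8 arrays by the root mean square difference of log2 signals, each centred on its own mean, over 11217 genes with the receptor left out of its own comparison. For Lag3 they were Klrg1 (0.22 log2), the interferon-induced gene Ifitm1 (0.25) and the zinc finger gene Plagl1 (0.26), against a spread of Lag3 itself of 0.77. For Ctla4 they were the adhesion molecule gene Icam1 (0.04), Lgals3 (0.04) and Xdh, which encodes xanthine dehydrogenase (0.06), against 0.39. For Pdcd1 they were Ighv14-2 (0.12), Tshz2 (0.12) and Ikzf2 (0.12), against 0.43. For Cd200 they were Spag9 (0.07), Sh3bp5 (0.08) and Arrdc4 (0.09), against 0.33. Btla (Pias3, Slk and Zfp275) and Cd160 (Gm30054, Rab1a and Spo11) varied least of these 6, with spreads of 0.14 each and differences of 0.02 to 0.05. Lgals3 is also in the list of binding partners, and Klrg1 in that of other inhibitory receptors.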

How the data were processed

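RNA of 8 pools of sorted memory CD4 T cells was hybridised to Affymetrix arrays. Per the labels' protocols, biotin-labelled cRNA was made from 100 ng of Trizol-extracted total RNA. The authors deposited 1 linear intensity per probe set and array, and the submitters' processing notes list MAS5 and RMA with no role or version. How background was corrected and arrays were scaled is not given in the sources used. Genes were named from the platform annotation (34945 probe sets with 1 symbol, 932 with several, 9160 with none) and placed by RefSeq on GRCm38.p6.

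Signals were taken to log2 after adding 32, which makes differences of dim probe sets smaller than those of the signal. All probe sets above the filter were fitted with group means in limma 3.58.1 in R 4.3.3 (4 residual and 5.37 prior degrees of freedom), so that the 4 groups shared 1 estimate of spread, and probe sets below the filter were read from the same fit without it. An exact permutation test of 2 against 2 arrays cannot give a two-sided p below 0.333 and was not used. Each gene of a list was read from its brightest probe set. Named were all members, up to 4 genes per list and genotype comparison with the smallest p, the defining and brightest markers of other cell types, and the 3 genes most like each member. Cxcr5, Cxcr6, Tbx21 and Klre1 were named outside this rule, and of these the alternatives were run only for Klre1. The members and lists were chosen with earlier results of these data known. The precision is limited by the number of arrays. Deviations of same-numbered replicates correlated at -0.53 to 0.31 between groups, positively for some pairs of groups and negatively for others. Arrays may thus share deviations that the fit treats as independent. Same-numbered replicates were not treated as pairs. Alternatives covered scaling, filter, pseudocount, probe set per gene, array weights, variance model, replicate number and arrays left out. Figures were drawn with matplotlib 3.10.9.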

Additional observations from a re-analysis of the deposited data

Results flagged for a closer look

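For 3 of the genes named beside the receptors, the effect of genotype differed between Tfh and Th1 cells by limma's interaction term. Of all probe sets tested, 1.26% passed that term. Tnfsf14 and Klrg1 had been named for a small genotype p in these data. Klre1 was added after its values were seen, so its pass is no separate test. Tnfsf14 had 43.5 and 45.8 in Rictor-null Tfh cells, 45.7 and 46.8 in WT Tfh cells, 34.4 and 37.7 in Rictor-null Th1 cells, and 60.3 and 64.5 in WT Th1 cells. The groups overlapped in Tfh cells and lay apart in Th1 cells, and the effects differed by 0.44 log2 (adjusted p = 0.0403). That call was lost in 14 of 21 alternatives, 7 of which leave out a single array (adjusted p = 0.0637 to 0.243, for each array except Rictor-null Tfh replicate 1). Klrg1 differed by -0.62 log2 (adjusted p = 0.0308), with a larger rise in Th1 cells, and lost its call in 8 of 21, among them without either WT Tfh array (0.196 and 0.133), either Rictor-null Th1 array (0.0710 and 0.0733) or either WT Th1 array (0.0562 and 0.103). Klre1 differed by -0.93 log2 (adjusted p = 0.0104), also with the larger rise in Th1 cells, and lost its call in 4 of 21, among them without either WT Tfh array (0.0543 and 0.0697). Under the ordinary linear model none of the 3 was called (adjusted p = 0.183, 0.232 and 0.198), and that model called 4 of all 23725 probe sets for the interaction.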

How the results depend on the processing

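The rises of Lag3 and Ctla4 in both cell types and of Pdcd1 in Tfh cells were called under each of 22 alternatives, with differences of 1.26 to 1.53 (Lag3, Tfh), 1.20 to 1.61 (Lag3, Th1), 0.61 to 0.70 (Ctla4, Tfh), 0.78 to 0.90 (Ctla4, Th1) and 0.66 to 0.84 log2 (Pdcd1, Tfh). No called member reversed under the alternatives run. With an ordinary linear model the Th1 calls of Pdcd1 (adjusted p = 0.131), Cd200 (0.05865) and both called Cd160 probe sets (0.127 and 0.132) ended. The Tfh call of Cd200 ended there too (adjusted p = 0.144). The number of member probe sets that rose was 3 to 4 in Tfh and 3 to 6 in Th1 cells with single arrays left out, and 2 in Th1 cells with an ordinary linear model. Between cell types in WT, 0 to 2 were higher and 0 to 1 lower in Tfh with single arrays left out. With the ordinary linear model 0 were higher and 0 lower, and 0 were lower under quantile normalization, median scaling, a pseudocount of 16, a variance trend, the replicate block, and with replicate 2 of Rictor-null Tfh and replicate 1 of WT Th1 both left out. In Rictor-null cells 2 were higher and 0 to 2 lower with single arrays left out, 1 higher and 0 lower with the ordinary linear model, and 1 lower under quantile normalization, array weights and the fit of only the groups compared. For the interaction 0 to 1 passed in each direction with single arrays left out.

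Over all probe sets the called number moved between 533 and 4420 in Tfh and between 816 and 2862 in Th1 cells with single arrays left out (2387 and 2075 with all arrays), and was 583 and 590 with the ordinary linear model. With 1 array left in a group, that array was assumed to vary like the other groups. The replicate block gave 1709 and 1620 calls and changed, among the members, the WT call of Btla (adjusted p = 0.0800). Deviations of same-numbered Tfh and Th1 arrays of WT mice correlated at -0.21, and those of Rictor-null Tfh and WT Th1 arrays at -0.53. A crossed replicate block, with the replicate numbers of the Th1 arrays exchanged, was added after seeing the data. It gave 3657 and 3156 calls, and among the members it added 1 rise in Tfh cells (Cd160) and 1 interaction (Pdcd1).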
